A study of Mus musculus with 27 samples.

Results

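The genes described here are 10 members of the Eph receptor and ephrin families: the receptors Epha3, Epha4, Epha5, Epha7, Ephb1, Ephb2 and Ephb3, and the ligands Efna5, Efnb1 and Efnb2. They were taken by name, as guidance cues and receptors along the optic stalk, and all 10 were found among the 55487 genes of the count table, in which Ensembl identifiers were matched to mouse symbols. The optic stalk (OS) is the tube of neuroepithelium that joins the optic cup to the brain and later gives rise to the astrocytes of the optic nerve. RNA was measured in mouse embryos at embryonic day 14, in 4 controls and 5 Smarcc1-DCT-cKO mutants on the C57Bl6/J background. The mutants carry loxP-flanked alleles of Smarcc1 (also called Baf155, a core member of the SWI/SNF complexes that move nucleosomes), the Dct-Cre transgene and the Z/EG reporter, and the controls are littermates without Dct-Cre. Dct-Cre is driven by a pigment cell promoter and is active in the retinal pigment epithelium (RPE) and the OS, and the study also describes optic disc cells in which it stays silent. From every embryo a dorsal, a ventral and an axon piece (the bundle of retinal ganglion cell, RGC, axons) was cut by laser capture microdissection, which gave 27 libraries in 6 groups of 4 control or 5 mutant libraries. Control embryo 1 and mutant embryos 1 to 3 belong to batch A, and control embryos 2 to 4 and mutant embryos 4 and 5 to batch B, as the labels name them.

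Eph receptors are receptor tyrosine kinases and ephrins are their membrane-bound ligands, so that signalling needs contact between cells and can run into both of them. Ephrin-A ligands are held in the membrane by a lipid (GPI) anchor and ephrin-B ligands span it, and EphA and EphB receptors mostly prefer ligands of their own class, with EphA4 binding both. In the visual system the families steer RGC axons to the optic disc, to a crossed or uncrossed path at the chiasm and to their place in the target maps, and elsewhere they keep cell populations apart and shape vessels.

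The totals of the libraries were 10.9 to 34.0 M counts (M, 1000000), and levels are given as CPM, the counts of a gene per M counts of its library. A count of 0 allows up to 3 counts, which is 0.0883 to 0.275 CPM in these libraries, and such limits cover counting error only because the amplified cDNA carried no molecular identifiers. Of the 270 values of the members, 48 (17.8%) were 0, from 3 of 40 (7.5%) in dorsal controls to 15 of 50 (30%) in axon mutants. Between 0 and 5 members were at 0 in a library. Smarcc1 itself was lower in all mutant than in all control libraries of the ventral pieces (75.7 to 198 CPM in controls, 14.7 to 64.4 CPM in mutants) and of the axon pieces (50.1 to 242 and 1.86 to 44.9 CPM), whereas in the dorsal pieces mutants 1 and 2 (94.9 and 107 CPM) lay inside the control range of 75.9 to 289 CPM. The 8 markers of stalk and astrocyte progenitors were all detected in 5 of the 6 groups (Vax2 was at 0 in every axon mutant). The summed RGC and axon markers reached 1129 to 2778 CPM in axon libraries and 4.17 to 1336 CPM in the others, with the defining RGC gene Pou4f2 at 0 in every group but the ventral mutants.

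The promoters of the 4 genes whose dorsal levels did not overlap between the genotypes (Epha3, Epha4, Efnb1 and Ephb2, below) are shown because these are the members on which the genotype comparison turns. Each line gives the 250 bases before the RefSeq transcription start (build GRCm38.p6), read 5′ to 3′ on the strand of the gene, with every CG pair in capitals.
Epha3 (chr16:63864176-63864425, minus strand): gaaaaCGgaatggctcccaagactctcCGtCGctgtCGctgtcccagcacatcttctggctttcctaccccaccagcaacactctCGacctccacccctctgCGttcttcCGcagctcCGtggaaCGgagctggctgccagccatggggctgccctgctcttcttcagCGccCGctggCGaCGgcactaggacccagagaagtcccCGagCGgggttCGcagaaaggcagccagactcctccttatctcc
Epha4 (chr1:77515089-77515338, minus strand): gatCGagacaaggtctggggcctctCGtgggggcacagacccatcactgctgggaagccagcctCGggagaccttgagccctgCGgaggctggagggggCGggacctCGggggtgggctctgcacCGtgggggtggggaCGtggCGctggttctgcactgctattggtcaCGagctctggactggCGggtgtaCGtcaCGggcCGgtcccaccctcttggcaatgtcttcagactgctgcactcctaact
Efnb1 (chrX:99135811-99136060, plus strand): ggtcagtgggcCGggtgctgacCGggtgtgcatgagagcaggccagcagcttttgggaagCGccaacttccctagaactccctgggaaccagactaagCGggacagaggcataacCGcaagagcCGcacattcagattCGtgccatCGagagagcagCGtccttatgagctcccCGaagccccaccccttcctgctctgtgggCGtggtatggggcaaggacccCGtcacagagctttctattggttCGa
Ephb2 (chr4:136836013-136836262, minus strand): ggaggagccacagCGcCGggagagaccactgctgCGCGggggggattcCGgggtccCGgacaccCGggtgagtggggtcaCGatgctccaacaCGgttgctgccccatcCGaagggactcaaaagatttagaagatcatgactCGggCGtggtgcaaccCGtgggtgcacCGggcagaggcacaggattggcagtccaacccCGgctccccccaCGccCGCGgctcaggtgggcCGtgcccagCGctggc
These windows hold 16, 14, 13 and 20 CG pairs, and 62.8%, 66%, 60% and 68.4% of their bases are G or C. Over the 32851 promoter windows of the same length the medians were 6 CG pairs and 52.4%. RefSeq windows were matched for all 10 members, 11 windows in all since Epha7 has a second start, and they held from 10 (Ephb1) to 32 CG pairs (Efna5). A search of both strands for 6 motifs found none in 9 of the 11 windows. The motifs were 4 versions of the E-box, CACGTG (held by 6.02% of all promoter windows), CATGTG (held by 12.3%), CAGCTG (held by 13.0%) and CAGATG (held by 14.4%), the Otx-type site TAATCC (held by 6.25%) and the Sox-type site AACAAT (held by 9.42%). Ephb1 held AACAAT at bases -133 to -128 from the start and Ephb3 held CAGCTG at bases -137 to -132. These matches describe the letters only.

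All 10 members passed the filter for testing (more than 10 counts in at least 3 libraries). Per kb of exonic sequence, the scale on which genes can be set side by side, Efna5 had the highest mean level over the 27 libraries (20.8 ± 12.4 CPM per kb, SD) and Epha4 the next highest (13.0 ± 12.1). Epha3 (5.84 ± 11.9), Efnb2 (5.56 ± 8.37), Ephb3 (3.71 ± 4.87), Ephb2 (3.10 ± 2.70), Efnb1 (3.04 ± 6.12), Epha5 (2.33 ± 2.88), Epha7 (2.22 ± 3.11) and Ephb1 (1.40 ± 3.24) followed, and neighbours in this order differed by less than their spread. With the longest transcript as the length, 5 of the 10 ranks moved.

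**Figure D1:**
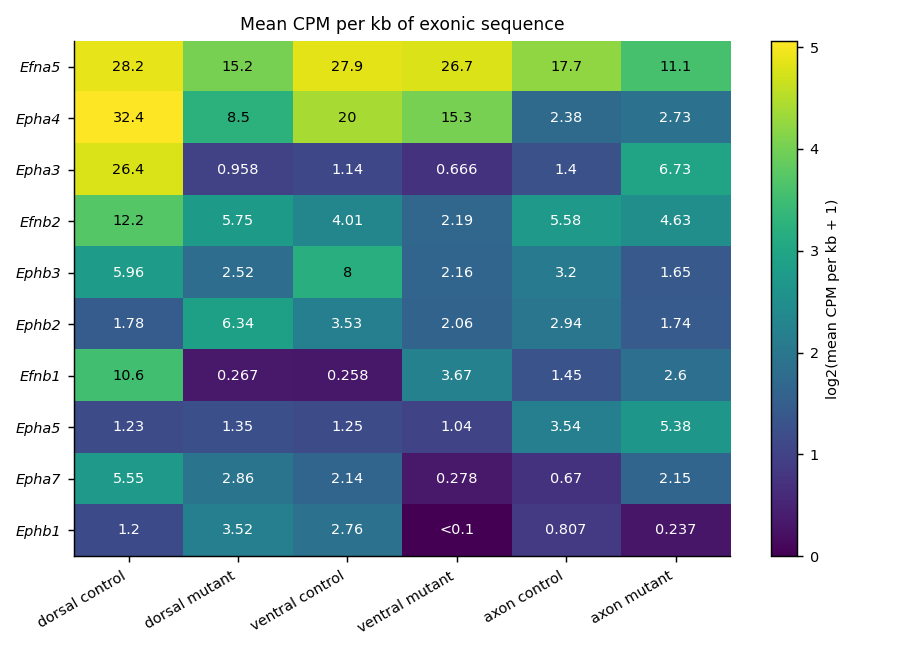
Mean CPM per kb of exonic sequence of the 10 genes (rows, ordered by the mean over 27 libraries) in the 6 groups (columns, 4 control or 5 mutant libraries each), with the colour on a log2 scale. Epha4 and Epha3 read 32.4 and 26.4 in dorsal controls and 8.50 and 0.958 in dorsal mutants, while Efna5 stays between 11.1 and 28.2 in every group.

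The order differed between the pieces. In dorsal controls Epha4 led (32.4 ± 5.16 CPM per kb, n = 4), followed by Efna5 (28.2 ± 12.3) and Epha3 (26.4 ± 21.8), each less than its own SD below Epha4. In dorsal mutants Efna5 led (15.2 ± 8.66, n = 5), Epha4 was next (8.50 ± 3.48) and Epha3 and Efnb1 were the 2 lowest (0.958 ± 0.947 and 0.267 ± 0.365). In the ventral pieces Efna5 (27.9 ± 14.4 in controls, 26.7 ± 7.69 in mutants) and Epha4 (20 ± 11.8 and 15.3 ± 9.88) were the top pair in both genotypes. In axon controls Efna5 (17.7 ± 12.2) was followed by Efnb2 (5.58 ± 2.54) and Epha5 (3.54 ± 0.927), and Epha4 stood at 2.38 ± 1.86. Efna5 was thus in the top pair of all 6 groups on this scale, with the receptor Epha4 beside it in the 4 dorsal and ventral groups. With the longest transcript as the length, Epha4 (41.2 CPM per kb) and Epha3 (40.6) led in dorsal controls and Efna5 (28.2) came next.

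The first comparison asks whether the members differ between mutants and controls within a piece. In the dorsal piece the levels of 4 of the 10 members did not overlap between the 4 control and the 5 mutant libraries: Epha3, Epha4 and Efnb1 were lower in every mutant and Ephb2 was higher in every mutant, against 2.92% of the 16145 genes tested that were apart in either direction. None of the 10 was called by edgeR (quasi-likelihood F-test, Benjamini-Hochberg adjusted p under 0.05 and absolute log2 fold change over 0.58), a call that 2 genes in all (0.0124%) reached. DESeq2, the tool of the study's own differential tests, called 532 genes (3.30%) here, among them Epha3, Epha4 and Efnb1. The limma voom fit, which called 41, called no member. At an unadjusted p under 0.05 there were 3 members, all lower, against 5.35% of all genes. The median log2 fold change of the members was -0.91 (3 positive, 7 negative) and that of all genes -0.04. In bulk pieces fewer cells of a type and less RNA per cell cannot be told apart.

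Epha4, the receptor that binds both ephrin classes, measured 313, 275, 221 and 235 CPM in dorsal controls 1 to 4 and 62.1, 116, 57.4, 40.8 and 66.5 CPM in dorsal mutants 1 to 5. Every mutant lay below every control, and the gap was present in both batches (313 against 57.4 to 116 CPM in batch A, 221 to 275 against 40.8 to 66.5 CPM in batch B). The log2 fold change was -2.08 ± 0.38 (SE), with an edgeR p of 0.000155 and an adjusted p of 0.192. The exact permutation test of log2(CPM + 1) (two-sided) gave 0.00794, the smallest p that 4 against 5 libraries allow, and 0.025, again the smallest, when the batches were kept. Adjusted over all genes, the exact permutation p of 0.00794 became 0.455. Groups that do not overlap yield an exact p at or near these floors and a gap within each batch. Neither is thus further support, for Epha4 or for Epha3, Efnb1 and Ephb2 below.

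Epha3, a receptor of ephrin-A ligands, measured 34.5, 195, 489 and 200 CPM in the dorsal controls and 12.3, 0.238, 9.47, 0.207 and 19.4 CPM in the mutants. The highest mutant was below the lowest control, which is the batch A control. The log2 fold change was -4.03 ± 1.44, with an edgeR p of 0.0165 and an adjusted p of 0.918, and the exact permutation p was 0.00794 (0.025 within batches). Without control 3, the highest library, it was -3.51 ± 1.49.

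Efnb1, the X-linked ephrin-B ligand known for boundaries between cells in the developing head, measured 11.1, 71.9, 57.2 and 6.46 CPM in the dorsal controls and 0, 0, 0, 2.28 and 2.33 CPM in the mutants. It was thus at 0 in the 3 mutants of batch A and just above 0 in both mutants of batch B, where the lowest control was 6.46 CPM. The log2 fold change was -6.42 ± 2.11 (edgeR p 0.0104, adjusted p 0.918), -4.29 ± 2.06 in batch B only, with an exact permutation p of 0.00794.

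Ephb2, a receptor that helps RGC axons to find the optic disc, went the other way, with 31.8, 8.19, 12.6 and 37.1 CPM in the dorsal controls and 148, 61.8, 95.4, 48.3 and 45.9 CPM in the mutants. All 5 mutants were above the highest control, by least in batch B, where the mutants measured 45.9 and 48.3 CPM and the controls up to 37.1 CPM. The log2 fold change was 1.46 ± 0.80 (edgeR p 0.0939, adjusted p 0.938) and the exact permutation p 0.00794.

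**Figure D2:**
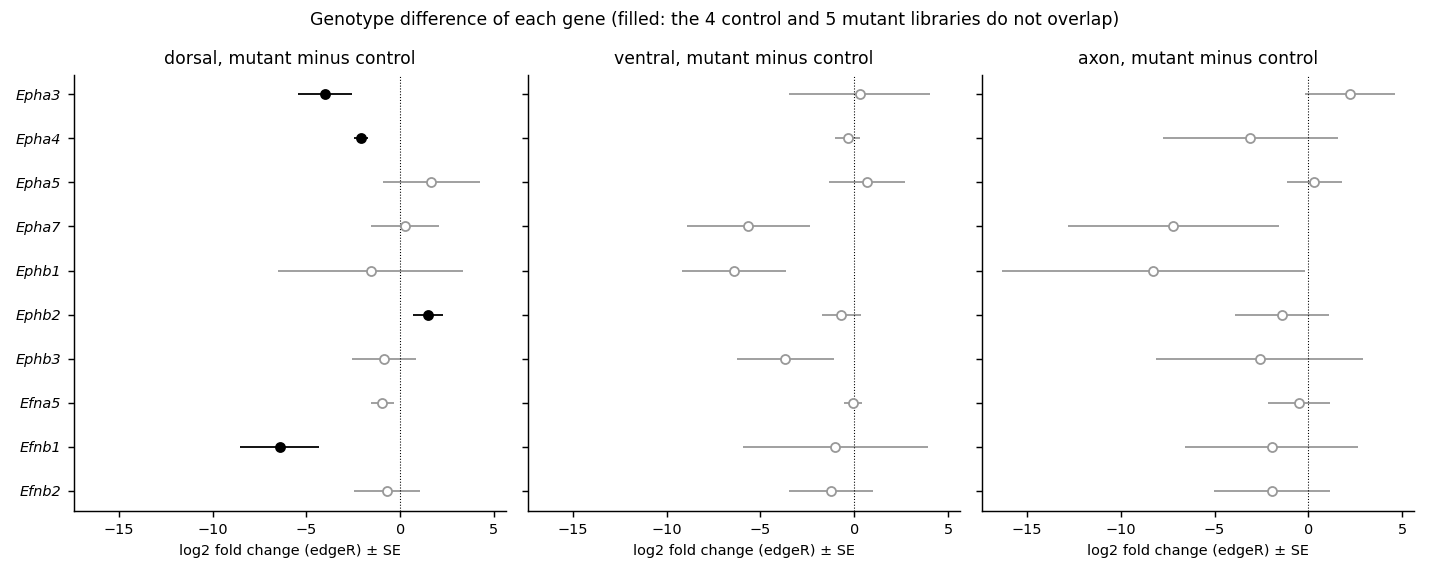
Log2 fold change of mutant against control (x axis, edgeR estimate with its SE as bars) for the 10 genes (y axis) in the dorsal, ventral and axon pieces, 4 control and 5 mutant libraries each. Filled points mark genes whose libraries do not overlap: Epha3, Epha4, Efnb1 (lower) and Ephb2 (higher) in the dorsal piece and none in the others.

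The other 6 members overlapped between the genotypes in the dorsal piece. Efna5, a repellent cue of the retinal map, had a mean of 114 ± 49.8 CPM in controls and 61.2 ± 34.9 CPM in mutants, with 4 of the 5 mutants inside the control range of 44.0 to 159 CPM. Efnb2, a ligand of EphB receptors at the chiasm and in arteries, ran from 3.16 to 275 CPM in controls and from 11 to 73.7 CPM in mutants. Epha5, Epha7, Ephb1 and Ephb3 had mutant means of 22.5, 28.3, 24.6 and 16.8 CPM against 20.6, 54.9, 8.39 and 39.6 CPM in controls, with SDs in controls above or near the means. Summed over the 4 EphA receptors, the dorsal controls held 349 to 877 CPM and the mutants 76.2 to 168 CPM. Most of the mean sum of 566 CPM in controls was Epha3 and Epha4 (230 and 261 CPM). The sum thus repeats their separation, while Epha5 and Epha7 overlapped. The sum of the 3 EphB receptors (14.3 to 158 and 63.5 to 263 CPM) overlapped.

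Marker lists of the stalk and of other cell types moved with the dorsal genotypes. Of the 8 stalk and astrocyte progenitor markers, 7 had lower estimates in dorsal mutants (median log2 fold change -1.08), with summed levels of 956 to 1378 CPM in controls and 376 to 714 CPM in mutants. These sums did not overlap and moved in the same direction as Epha4, Epha3 and Efnb1, while the mean level of the list did overlap (4.62 to 5.95 log2(CPM + 1) in controls, 3.54 to 4.90 in mutants). All 10 markers of periocular mesenchyme, the neural crest and mesoderm cells around the eye, had lower estimates in dorsal mutants (median log2 fold change -3.99), and their mean level was 4.91, 6.32, 8.32 and 5.71 log2(CPM + 1) in controls 1 to 4 and 1.69, 0.93, 1.58, 2.85 and 3.52 in mutants 1 to 5. The control with the most mesenchyme RNA, control 3, also had the most Epha3 and Efnb2, and the control with the least, control 1, had the least of both. Among the dorsal mutants the top pair in mesenchyme markers, 4 and 5, was also the pair with any Efnb1, and these are the mutants of batch B. Among the dorsal controls Efnb1 did not follow the markers, being highest in control 2 and lowest in control 4. Epha3 was lowest in mutants 2 and 4. Epha4 differed from this order, with its highest control value in control 1 (313 CPM) and its lowest in control 3 (221 CPM).

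**Figure D3:**
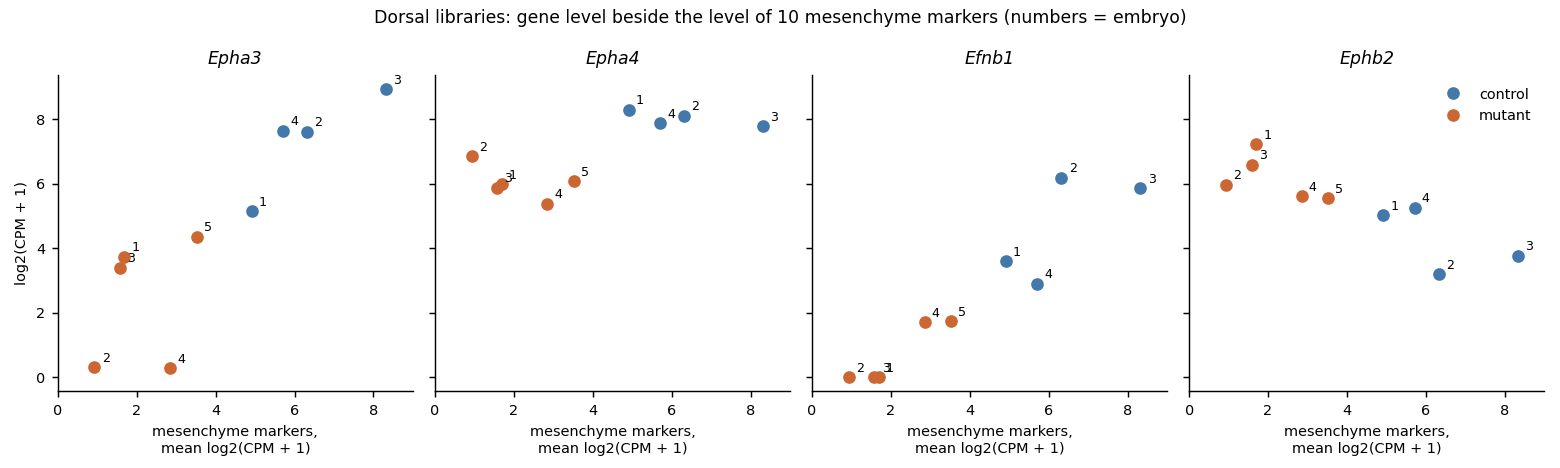
Level of Epha3, Epha4, Efnb1 and Ephb2 (y axis, log2(CPM + 1)) against the mean level of 10 mesenchyme markers (x axis, the same unit) in the 9 dorsal libraries, numbered by embryo. The controls lie at 4.91 to 8.32 and the mutants at 0.93 to 3.52 on the x axis, and Epha3 climbs across the controls while Epha4 does not.

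In axon control 1 the mesenchyme markers (6.35) were above 3 of the 4 dorsal controls, and Epha3 (8.12 CPM) and Efnb1 (2.06 CPM) were below every dorsal control there. Over axon controls 1 to 4 the markers (6.35, 3.97, 4.44 and 4.22) and Epha3 (8.12, 33.4, 0 and 7.24 CPM) differed in order. Over axon mutants 1 to 5 the markers (4.77, 5.56, 4.90, 2.65 and 5.29) and Epha3 (19.1, 122, 66.5, 0 and 85 CPM) had the same order. Efnb1 was also highest in axon mutant 2 (42.9 CPM). All 7 endothelial markers were also lower in dorsal mutants (median log2 fold change -1.61, summed level 178 to 362 CPM in controls and 30.5 to 394 CPM in mutants), and all 7 pigment cell markers were higher (median 2.07, summed level 43.5 to 5003 and 2940 to 11800 CPM). The summed pigment markers were 5003, 1300, 43.5 and 4731 CPM in dorsal controls 1 to 4. In dorsal mutants 1 to 5 they were 10732, 5606, 11800, 2940 and 5388 CPM. The top pairs, controls 1 and 4 and mutants 1 and 3, were also the top pairs in Ephb2. In the ventral pieces pigment RNA was highest in control 3 and mutant 1, and Ephb2 in control 2 and mutant 5. None of these markers was called by edgeR between the dorsal genotypes. The part of the stalk and of other cell types in the differences of Epha3, Epha4, Efnb1 and Ephb2 was not tested.

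In the ventral piece no member was apart (1.23% of 16139 genes were), 1 had an unadjusted p under 0.05 in edgeR (3.19% of genes) and none was called by edgeR (0% of genes). The member was Ephb1, the receptor of the RGCs that take the uncrossed path, with 0.102, 73.1, 0 and 3.98 CPM in controls and 0, 0, 0, 0 and 0.306 CPM in mutants. Its log2 fold change of -6.42 ± 2.78 (edgeR p 0.0403, adjusted p 0.999; exact permutation p 0.0873) came from a group in which only control 2 was above 3.98 CPM. That embryo also had the highest summed RGC markers of the ventral and the dorsal pieces (1336 and 957 CPM) and the highest Ephb1 of the dorsal controls (33.5 CPM).

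Epha7, an EphA receptor known from cortical and tectal maps, was at 0 in 4 of the 5 ventral mutants and at 13.7 CPM in mutant 4, against 17.7, 22.4, 35.3 and 9.13 CPM in controls. Only control 4 fell below mutant 4. The exact permutation p of Epha7, 0.0238, was the smallest of the members in this piece and did not pass after adjustment over all genes. Ephb3, which acts beside Ephb2 at the optic disc, measured 28.4 to 117 CPM in ventral controls and 0 to 50.2 CPM in mutants. Epha4 (161 ± 94.8 and 123 ± 79.6 CPM) and Efna5 (113 ± 58.2 and 108 ± 31.0 CPM) had ventral means closer to each other than their SDs. The median log2 fold change of the members was -0.86 and that of all genes -0.08.

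In the axon piece no member was apart (1.28% of 14977 genes were), none had an unadjusted p under 0.05 in edgeR (3.55% of genes) and none was called by edgeR (0% of genes). DESeq2, which called 8.27% of genes here, called Epha7 (log2 fold change -7.35, adjusted p 0.0184) and Ephb1 (-10.19, adjusted p 0.0292). Epha7 measured 14.6, 0.164, 11.6 and 0.0458 CPM in axon controls and 21.5, 81.6, 3.4, 0 and 0 CPM in mutants. Its mean was higher in mutants (21.3 CPM) than in controls (6.62 CPM), against the sign of the estimate. Ephb1 measured 0, 4.42, 18.2 and 0 CPM in controls and 0, 8.31, 0, 0 and 0 CPM in mutants. Epha5, a receptor that is graded across RGCs in the mouse, measured 45.7, 78.7, 47.9 and 64.8 CPM in axon controls and 130, 1.11, 214, 2.45 and 102 CPM in axon mutants. The mutants fell on both sides of the control range and none inside it, with an SD of 90.6 CPM against 15.5 CPM in controls. Efnb2 measured 50.0, 54.5, 32.1 and 16.6 CPM in axon controls and 0, 0, 2.79, 0 and 156 CPM in mutants, so that 4 of the 5 mutants lay below all controls and 1 above. Epha4 lay below all mutants in the axon control of batch A (0.0556 against 2.24 to 69.8 CPM) and above them in batch B (14.8 to 33.5 against 0 to 2.13 CPM). The median log2 fold change of the members was -1.95 with 8 of 10 negative, and that of all genes -0.29.

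**Figure D4:**
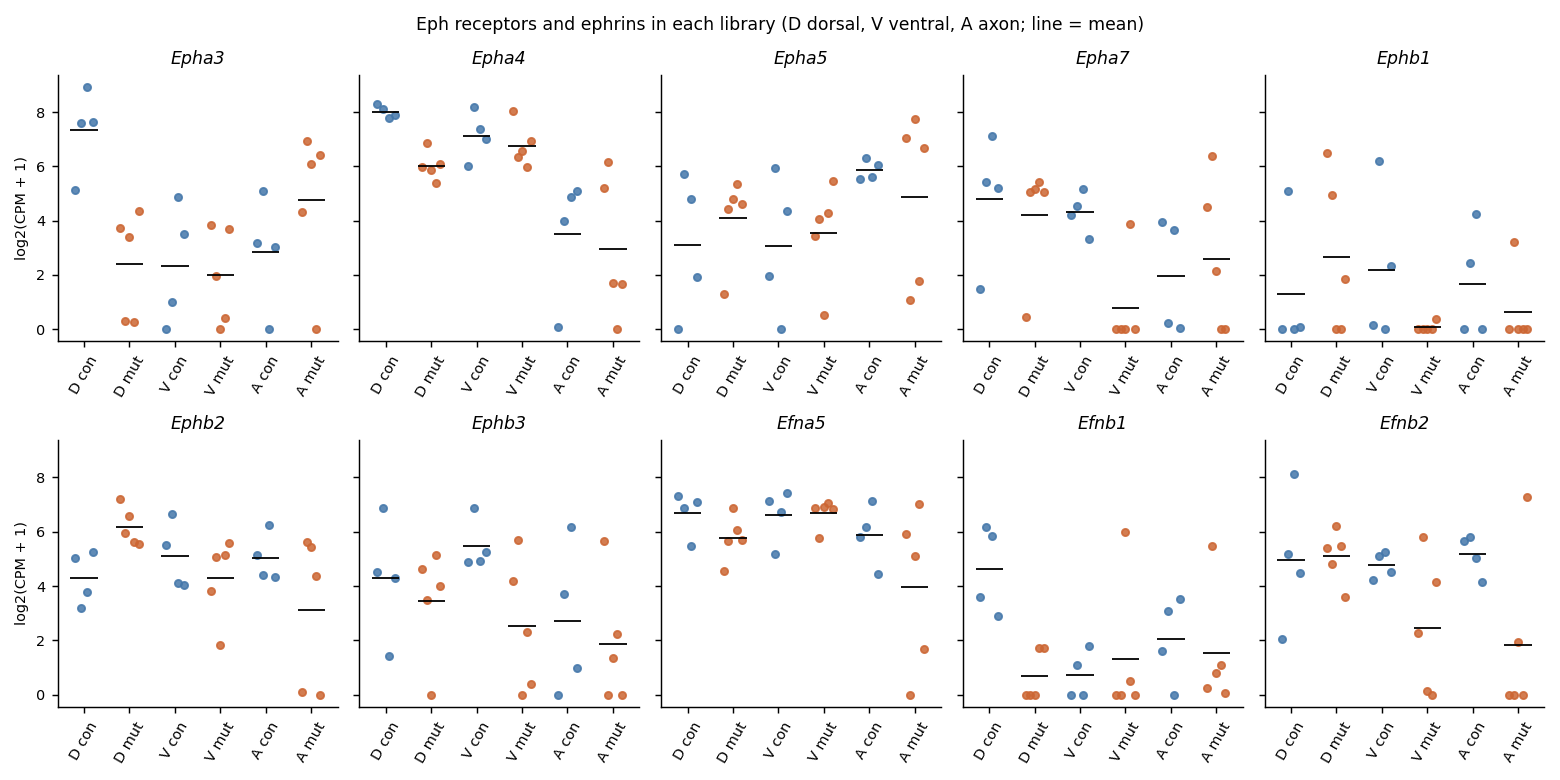
Level of each of the 10 genes (y axis, log2(CPM + 1)) in all 27 libraries, with a point per library and a line at the mean of the group (D dorsal, V ventral, A axon; con control in blue, mut mutant in orange). Dorsal mutants lie wholly below dorsal controls for Epha3, Epha4 and Efnb1 and above them for Ephb2, and points at 0 are most frequent in ventral and axon mutants.

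The second comparison asks how the members differ along the stalk, by setting the 3 pieces of each embryo against each other in a fit of all 27 libraries with the embryo as a block. The regional comparisons share libraries with each other. Epha4 was the member with the steadiest pattern: it was higher in the dorsal and in the ventral piece than in the axon piece of 9 of 9 embryos. Its axon levels were 0.0556, 14.8, 28.4 and 33.5 CPM in controls and 35.7, 69.8, 2.24, 0 and 2.13 CPM in mutants, and its ventral levels 63.1, 288, 166 and 127 CPM and 260, 79.7, 93.8, 62.0 and 121 CPM. Mutant 2 came closest to equality, with 79.7 CPM in the ventral and 69.8 CPM in the axon piece.

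Over both genotypes the log2 difference of Epha4 was 3.53 ± 0.97 for dorsal against axon (edgeR p 0.00161, adjusted p 0.0815) and 3.41 ± 0.95 for ventral against axon (p 0.00177, adjusted p 0.106). The exact permutation test over sign changes of the 9 embryos (two-sided) gave 0.00391 for each, the smallest p it allows. A sign shared by 9 of 9 embryos fixes this p, so it is no further support. Adjusted over all genes, the exact permutation p was 0.172 and 0.18. In controls alone the differences were 4.12 ± 1.43 and 3.08 ± 1.33 (adjusted p 0.459 and 1), and in mutants alone 2.95 ± 1.32 and 3.74 ± 1.34 (adjusted p 0.374 and 0.29). Between dorsal and ventral, Epha4 was higher dorsally in 4 of 9 embryos. The choice of tool decided the call: limma voom (adjusted p 0.0389 and 0.0215), DESeq2 and a newer edgeR method called Epha4 in both comparisons with the axon piece over both genotypes. Of all genes DESeq2 called 25.9% and 24.8% there, limma voom 4.89% and 4.06%, and the newer edgeR method 2.59% and 1.49%.

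No member was called between regions by edgeR, whereas DESeq2 called 1 to 3 members in each of these 9 comparisons. Of all genes DESeq2 called 6.14% to 7.7% for dorsal against ventral. It called 13.1% to 26.3% for dorsal against axon and 12% to 24.8% for ventral against axon. By edgeR, 0.049% of the 16330 genes were called for dorsal against ventral over both genotypes, 0% in controls and 0.0306% in mutants. The dorsal against axon shares were 1.35%, 0.704% and 0.698%, and the ventral against axon shares 0.857%, 0.251% and 0.545%. At an unadjusted p under 0.05 there was 1 member in each comparison over both genotypes, against 4.71%, 13.1% and 11.8% of genes for dorsal against ventral, dorsal against axon and ventral against axon. Members with the same sign in 9 of 9 embryos numbered 0, 1 and 1 (Epha4 in both cases), against 1.01%, 2.27% and 2.17% of genes. The medians of the members were 0.60, 1.32 and 0.22 and those of all genes -0.07, 0.84 and 0.91 in the same order.

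**Figure D5:**
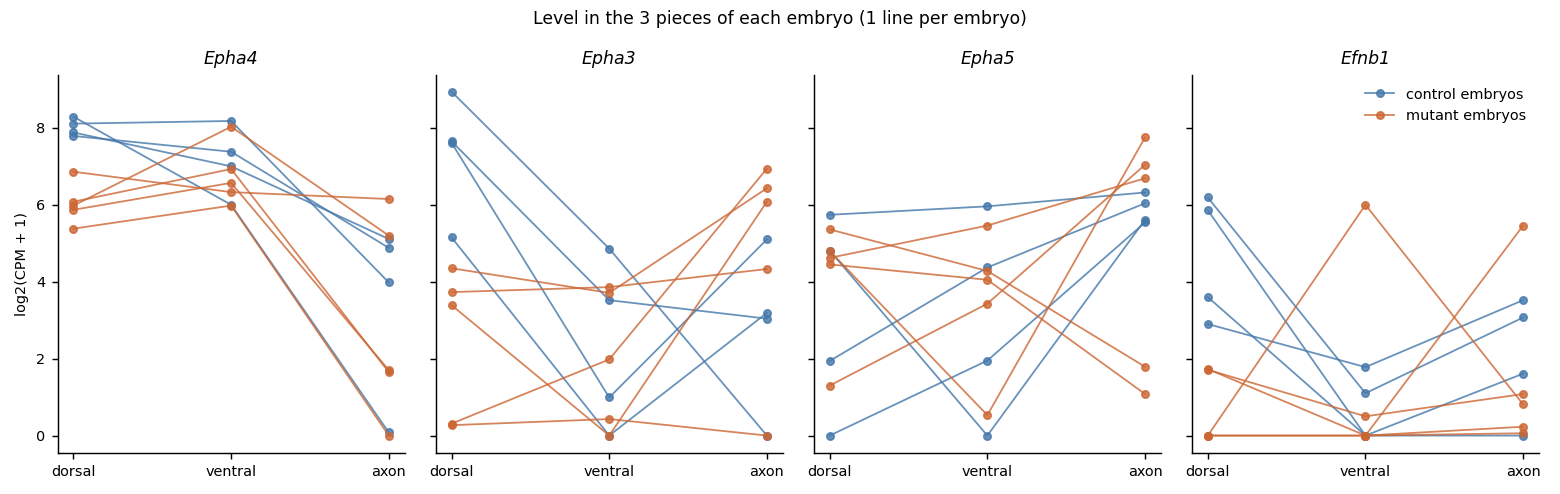
Level of Epha4, Epha3, Epha5 and Efnb1 (y axis, log2(CPM + 1)) in the dorsal, ventral and axon piece (x axis) of each embryo, joined by a line per embryo (4 controls in blue, 5 mutants in orange). Epha4 ends lowest in the axon piece of all 9 embryos, Epha5 ends highest there in the 4 controls, and Epha3 is highest dorsally in the 4 controls only.

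Within a genotype, a sign shared by all embryos was frequent. It was met in controls by 10.7%, 13.1% and 12.1% of genes for dorsal against ventral, dorsal against axon and ventral against axon, and by 3 members each time, and in mutants by 6.92%, 9.88% and 9.4% of genes and by 2 members each time. In controls Epha3 and Efnb1 were higher in the dorsal than in the ventral piece of every embryo. Epha3 measured 34.5, 195, 489 and 200 CPM in the dorsal pieces and 0, 0.992, 28.1 and 10.4 CPM in the ventral pieces of the same embryos (4 of 4, log2 difference 5.13 ± 2.27, edgeR p 0.0347, adjusted p 1). It was also higher than in the axon piece in 4 of 4 (2.92 ± 2.09, adjusted p 0.91). Efnb1 was 7.54 ± 3.91 higher on the log2 scale dorsally than ventrally (4 of 4 embryos, adjusted p 1; 5.42 ± 3.87 without control 3), with at most 2.42 CPM in a ventral control. The mesenchyme markers differed in the same direction between these pieces, with 4.91 to 8.32 in dorsal and 1.07 to 4.30 in ventral controls, and their part was not tested.

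Epha5 was highest in the axon piece of all 4 controls. Its dorsal levels there were 0, 52.5, 27.1 and 2.83 CPM and its ventral levels 2.86, 61.2, 0 and 19.6 CPM, each below the axon level of the same embryo. The log2 difference was -3.02 ± 2.28 for dorsal against axon and -2.84 ± 2.07 for ventral against axon (edgeR adjusted p 0.91 and 1). In mutants the axon piece was the highest in embryos 1, 3 and 5 and the lowest in embryos 2 and 4.

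The other members that kept a sign within a single genotype are read against the same shares. In mutants Epha7 was higher dorsally than ventrally in 5 of 5 embryos (log2 difference 9.43 ± 3.84, edgeR p 0.0234, adjusted p 1), which over both genotypes became 8 of 9 (5.40 ± 2.27, p 0.0275, adjusted p 1; exact permutation p 0.0508). Ephb2 was higher dorsally than in the axon piece in 5 of 5 mutants (2.14 ± 1.67). Efna5 was lower dorsally than ventrally (-0.73 ± 1.06) and higher ventrally than in the axon piece (1.90 ± 1.20) in 5 of 5 mutants. In controls Ephb3 was lower dorsally than ventrally in 4 of 4 embryos (-0.54 ± 2.24), and Epha7 was higher ventrally than in the axon piece in 4 of 4 (2.45 ± 2.96). The edgeR adjusted p of these was 0.576 or higher.

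The third comparison asks whether the genotype difference itself varied along the stalk, as the regional difference in mutants minus that in controls. Epha3 was the member whose regional differences did not overlap between the genotypes. Its dorsal minus axon difference in log2(CPM + 1) was 1.96, 2.51, 8.94 and 4.61 in the controls and -0.59, -6.64, -2.69, 0.27 and -2.07 in the mutants. Every control was above every mutant, with 0.207 to 19.4 CPM in the dorsal pieces of the mutants and 19.1, 122, 66.5, 0 and 85 CPM in their axon pieces. The edgeR interaction was -5.96 ± 2.91 (p 0.0537, adjusted p 0.961) and the exact permutation p 0.00794. Differences that do not overlap reach or come near this floor, so the exact p is no further support. The mean level of the mesenchyme markers was 4.91 to 8.32 log2(CPM + 1) in dorsal controls and 0.93 to 3.52 in dorsal mutants. In the axon pieces it was 3.97 to 6.35 in controls and 2.65 to 5.56 in mutants. The part of mesenchyme RNA in the Epha3 difference was not tested. For dorsal minus ventral the differences of Epha3 were 4.07 to 6.62 in controls and -1.67 to 3.39 in mutants (interaction -4.83 ± 2.80, adjusted p 1; exact permutation p 0.0159). Epha7 had a ventral against axon interaction of -11.26 ± 5.10 (edgeR p 0.039, adjusted p 1; exact permutation p 0.0952).

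By edgeR none of the 10 members was called for a genotype effect that differed between regions, a call reached by 0.00612% of genes for dorsal against ventral, 0.0122% for dorsal against axon and 0% for ventral against axon. Members with an unadjusted p under 0.05 numbered 0, 0 and 1, against 2.29%, 4.95% and 3.89% of genes, and members that were apart numbered 1, 1 and 0, against 1.80%, 1.95% and 1.15%. An exact permutation p under 0.05 was reached by 3, 1 and 0 members, against 5.75%, 6.02% and 4.12% of genes. DESeq2 called Epha7 for dorsal against ventral (adjusted p 0.0244) and ventral against axon (0.000192) and Epha3 for dorsal against axon (0.0461), and the newer edgeR method called Epha3 for dorsal against axon (adjusted p 0.0128). Of all genes DESeq2 called 5.13% for dorsal against ventral, 13% for dorsal against axon and 13.2% for ventral against axon. The newer edgeR method called 0.0306% for dorsal against axon.

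Of the 12 other Eph and ephrin genes, 9 passed the filter; Epha1, Epha6 and Epha8 did not. In the 3 genotype comparisons none of the 9 was called by edgeR, apart or under an unadjusted p of 0.05, and the dorsal median of 0.45 (6 positive, 3 negative) was on the other side of 0 from the members. Ephb4, the receptor of veins that binds ephrin-B2, measured 52.3 to 72.9 CPM in dorsal, 29.5 to 40.6 CPM in ventral and 6.02 to 45.7 CPM in axon controls, and was higher dorsally than in both other pieces in 4 of 4 control embryos (0.85 ± 1.48 against ventral, 1.34 ± 1.53 against axon). Efna2 was lower dorsally than ventrally in controls 2, 3 and 4 (-3.92 ± 3.39 over the controls, edgeR adjusted p 1), while control 1 held at most 3 counts in each piece. Efna3 was at 0 in all 9 axon libraries and reached 1.49 CPM in ventral controls and 2.27 CPM in ventral mutants (edgeR p 0.0393, adjusted p 0.401 over both genotypes). Efnb3 was lower dorsally than ventrally in mutants (-5.98 ± 2.61, p 0.033, adjusted p 1) and higher ventrally than in the axon piece (7.17 ± 3.18, p 0.0356, adjusted p 0.407).

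All 30 genes of the intracellular machinery of Eph and ephrin signalling (exchange factors, adaptors, Src-family kinases and small GTPases with their effectors) passed the filter, and none was called by edgeR in a genotype comparison. Dorsally 20 of the 30 had a negative and 10 a positive estimate (median -0.25). Rac1, the GTPase that drives actin protrusion, measured 107 to 169 CPM in dorsal controls and 16.6 to 77.6 CPM in mutants (log2 fold change -1.46 ± 0.61, edgeR p 0.0335, adjusted p 0.918), with no overlap. It was 1 of 2 genes of the 30 that were apart dorsally (2.92% of all genes), and the other was Tiam1, a Rac exchange factor, with 14.6 to 27 CPM in controls and 0 to 7.99 CPM in mutants. Of the 30, Inppl1 alone was apart in the ventral piece (0 to 4.16 CPM in controls, 4.62 to 15.9 CPM in mutants) and the kinase Fyn alone in the axon piece (0.723 to 86.7 and 116 to 142 CPM). Tiam1, Inppl1 and Fyn were chosen after their values were seen. Rock2, a kinase that raises contractility, measured 6.74 to 51.1 and 24.0 to 105 CPM (1.96 ± 0.89, p 0.0482, adjusted p 0.918). Anks1, an adaptor that binds Eph receptors, had the next smallest dorsal p (-2.45 ± 1.58, p 0.146). In the ventral piece the 3 smallest p-values were those of Cdc42, Rock2 and Vav2 (0.0884, 0.181 and 0.27).

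In the axon piece Chn1, the alpha-chimaerin that relays EphA4 signals to Rac, measured 0 to 43.8 CPM in controls (median 19.2) and at most 0.133 CPM in mutants (edgeR p 0.0206, adjusted p 0.88), with both groups reaching 0. Vav3 was at 0 in all axon controls and reached 63.4 CPM in a mutant (p 0.0537), and Rasa1 had the next smallest p (1.83 ± 1.06, p 0.107).

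Across the 27 libraries the members did not share a common pattern: over their 45 pairs Pearson's r of log2(CPM + 1) ran from -0.34 (Epha3 with Efna5) to 0.44 (Epha3 with Efnb1, Epha4 with Ephb3, and Ephb1 with Ephb3). These coefficients are descriptions over libraries that differ in piece, genotype and depth. The genes most like Epha4, among 7297 with a mean of at least 20 CPM, were March6 (0.83), Cd81 (0.81) and Ggh (0.80), and those most like Efna5 were Brd8 (0.81), Clcn3 (0.81) and Rnf44 (0.80).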

How the data were processed

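Single-end reads were aligned by the authors with STAR to the mm10 genome, and HTSeq counted them per gene, in the Seq2Science pipeline at its default settings. The deposited table holds these raw counts, unscaled and unfiltered. The versions of these tools, the gene annotation and the handling of strand are not given in the sources used here. Of the members only Ephb1 shares exonic bases (2.17%) with a gene on the opposite strand. Reads of that shared part could be told apart only if strand was used in counting. Symbols, positions and lengths came from GENCODE M21 on mm10, which matched 55227 of 55487 identifiers, and the others hold 0.00287% of the counts.

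The 16330 genes that exceeded 10 counts in 3 or more of the 27 libraries were tested with edgeR 4.0.16 in R 4.3.3 (TMM, robust quasi-likelihood F-test, two-sided, legacy setting). The genotypes were compared on the 9 libraries of a piece with batch as a term. Regions and their interaction with genotype were compared in 1 fit of all libraries with the embryo as a block. Standard errors were derived from the F statistic and are approximate. Alternatives used DESeq2 1.42.0 (the study also used DESeq2 for its differential tests), limma 3.58.1 and other scalings, filters and blocks. The model steps were tested on simulated data. Exact permutation tests used log2(CPM + 1). An embryo is a replicate, and its 3 pieces carry the same number in the labels. Deviations of pieces of the same embryo correlated at -0.02 to 0.11 (median 0.04). No pair of libraries was identical (0 pairs).

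The members, the gene lists and the tests were chosen with earlier results of these data known. All members are described by level. A test is given where a gene was called, had an unadjusted p under 0.05 or had groups or within-embryo differences that did not overlap. The ventral permutation p of Epha7 is given besides, chosen after its value was seen. Of 30 signalling genes, the 3 with the smallest p in each genotype comparison are named. Library totals of 10.9 to 34.0 M counts limit the precision of low counts. Replicate libraries differed by more than counting error, as Ephb1 did in dorsal mutants (0 to 90.4 CPM). Earlier-stage tissue was not analysed here.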

Additional observations from a re-analysis of the deposited data

Results flagged for a closer look

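In 10 of 60 checks a group held a library far from the others, where chance gives about 1 in 20. That rate does not hold for 3 of the 10, in which the other libraries of the group were all at 0 (Epha7 in ventral mutant 4, Ephb1 in ventral mutant 5, at 5 counts, and Ephb1 in axon mutant 2). Others came from groups near 0 apart from the marked library. The rest reached 0.0673 CPM for Ephb1 in dorsal controls and 0.418 CPM for Efnb1 in ventral mutants. In axon mutants the rest reached 1.11 CPM for Efnb1 and 2.79 CPM for Efnb2. The count of 10 therefore cannot be read against that rate. The lowest libraries so marked were dorsal mutant 1 for Epha5 (1.47 CPM) and Epha7 (0.367 CPM), and ventral mutant 2 for Efna5 (53.9 CPM). The highest were ventral mutant 4 for Epha7 (13.7 CPM), dorsal control 2 for Ephb1 (33.5 CPM), ventral mutant 5 for Ephb1 (0.306 CPM), axon mutant 2 for Ephb1 (8.31 CPM) and Efnb1 (42.9 CPM), ventral mutant 3 for Efnb1 (62.9 CPM) and axon mutant 5 for Efnb2 (156 CPM).

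In 4 of 30 checks the exact permutation test (two-sided, over the 9 embryos) of the genotype difference between pieces gave an unadjusted p under 0.05. These exact permutation values were those of Epha3 for dorsal against axon (p = 0.00794) and for dorsal against ventral (p = 0.0159), Epha4 for dorsal against ventral (p = 0.0397) and Efnb1 for dorsal against ventral (p = 0.0397). By this test 5.75% of all genes passed for dorsal against ventral and 6.02% for dorsal against axon. Adjusted over all genes, the exact permutation p of these 4 was 0.781 to 0.828. None of the 4 passed edgeR's adjusted threshold (adjusted p 0.961 to 1).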

How the results depend on the processing

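The count of members called was 0 in all 15 comparisons and depended on the tool. DESeq2 called 3 members for the dorsal genotype comparison and 2 for the axon one, 2 for dorsal against ventral over both genotypes, in controls and in mutants and 1 for the difference of the genotype effect, 2, 1, 3 and 1 for dorsal against axon, and 2, 1, 2 and 1 for ventral against axon in the same order. Of all genes DESeq2 called 3.3% and 8.27% in the dorsal and axon genotype comparisons. Its shares for dorsal against ventral were 7.61%, 6.14%, 7.7% and 5.13% in that order. They were 25.9%, 13.1%, 26.3% and 13% for dorsal against axon and 24.8%, 12%, 24.1% and 13.2% for ventral against axon. The newer edgeR method called 2 members for the dorsal genotype comparison (40 genes in all, against 2), 1 over both genotypes, 2 in controls and 1 for the genotype effect of dorsal against axon, and 1 over both genotypes and 1 in mutants for ventral against axon. Of all genes it called 2.59%, 0.863% and 0.0306% in these dorsal against axon comparisons. The shares for ventral against axon were 1.49% and 1.12%. Without the count filter 1 member (Epha3) was called in the dorsal genotype comparison, with 101 genes. The limma voom fit called 1 member, Epha4, for each of the comparisons with the axon piece over both genotypes. Genes called over both genotypes for dorsal against axon numbered 221 with edgeR, 799 with limma voom and 4231 with DESeq2.

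Leaving out single embryos left every count at 0 (0 to 0). The Epha4 dorsal estimate ran from -2.26 to -1.89 over all alternatives and its adjusted p from 1.13e-07 to 1. In place of the batch term, the replicate block gave 0 members called in each genotype comparison, and the regional fits with no replicate block also gave 0. Levels under 3 counts have no order, and 48 of 270 values at 0 limit what can be said of Ephb1 (15 of 27 libraries at 0) and Efnb1 (9 of 27).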
